A study of Mus musculus with 6 samples.

Results

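The genes described here are the clustered core histone genes of the mouse, which encode the replication-dependent H2A, H2B, H3 and H4 proteins. Members were taken by symbol, not by level or change, as the genes whose current symbol begins with H2ac, H2bc, H3c or H4c followed by a number, with the RefSeq transcript of highest mean count standing for each gene. This gave 57 members of the 23896 genes with a symbol in the counts, namely 17 H2A, 16 H2B, 12 H3 and 12 H4 genes. Of these, 47 lie in the chromosome 13 cluster and 10 in the chromosome 3 cluster. No gene of chromosome 11 carries such a symbol, so that cluster holds no member. RNA was measured by mRNA-seq in MEL cells, an established line of mouse erythroleukemia cells that is held before the late steps of red cell maturation and resumes them when grown with DMSO. Cells grown with 2% DMSO for 2 days or for 4 days were compared with cells at day 0, and 2 replicate cultures were sequenced per day, which gives 6 libraries. Each day has 2 libraries, so the tests below set a change against the spread between replicate cultures, estimated from all 6 libraries together.

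Clustered histone genes are copied into mRNA mainly in S phase, when new nucleosomes are needed for the replicated DNA. Their mRNAs are unusual among metazoan mRNAs because most end in a short stem-loop rather than a poly(A) tail. The stem-loop is bound by the stem-loop binding protein Slbp, and the U7 snRNP, whose ring includes Lsm10 and Lsm11, guides the cut that makes the end. Some clustered genes can also make a polyadenylated mRNA that runs past the stem-loop. The libraries here were poly(A)-selected, so the counts record whatever histone RNA that selection retained, and how much of each gene's RNA was retained was not tested.

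The stem-loop can be read from the annotated transcripts. It was searched for after the coding end as 6 bases starting with GG, a loop of 4 bases starting with T, and the reverse complement of the first 6 bases. It was found in 38 of the 57 GENCODE M21 transcripts matched to the members, in 10 of 17 H2A, 8 of 16 H2B, 9 of 12 H3 and 11 of 12 H4 transcripts. A further 14 of the 57 transcripts stop within 10 bases of the coding end and so have no room for it. The sequences below are shown as DNA, 5′ to 3′ on the strand of the gene, with the loop in capitals. They are those of H2ac23, H3c14 and H4c14, which had among the highest levels per kilobase of their families at day 0, of the H2B genes H2bc8 and H2bc3, which took opposite courses between day 2 and day 4, and of H4c4, which carries the common H4 form. In the order printed they lie at chr13:21810898-21810913, chr13:23571843-23571858, chr13:23747203-23747218, chr3:96247327-96247342, chr3:96262939-96262954 and chr13:23581950-23581965 of GRCm38.
H2ac23: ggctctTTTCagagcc
H2bc8: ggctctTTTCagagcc
H2bc3: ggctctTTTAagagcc
H3c14: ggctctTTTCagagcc
H4c14: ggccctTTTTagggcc
H4c4: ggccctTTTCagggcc
The form of H2ac23 was shared by 9 H2A, 6 H2B and 5 H3 members, whereas no H4 member carried it and 6 H4 members carried that of H4c4. H2bc8, whose level recovered by day 4, and H2ac23, whose level did not, thus carry the same 16 bases. No stem-loop of this form was found in the transcripts matched to H2bc4, H2bc21, H2bc22 and H2bc23. Those matched to H2bc1, H2bc13, H2bc15 and H2bc18 stop within 10 bases of the coding end. The search could therefore not find a stem-loop in them, and whether these genes carry it was not tested.

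The libraries held 35294930 to 53899476 counts on transcripts, and the members took between 0.0211% and 0.0776% of them. Levels are given as library-scaled counts (CPM) after TMM scaling, and changes as log2 fold changes with their standard error from edgeR's quasi-likelihood test, with Benjamini-Hochberg adjustment over all 18351 tested transcripts and a call at an adjusted p below 0.05. Of the 9 erythroid marker genes, 8 were called higher and 1 lower at day 4 against day 0, against 35.5% and 36.4% of all genes tested. Their summed level lay between 914.5 and 972.9 CPM at day 0 and between 17340 and 19465 CPM at day 4. Slc4a1, the band 3 anion exchanger of the red cell membrane, rose by 7.42 ± 0.28 on the log2 scale, while Klf1, an erythroid transcription factor, fell by 0.54 ± 0.18 (edgeR, adjusted p = 0.0188). Of 8 markers of other cells, Cd3e, Elane, Col1a2 and Krt18 were at or near 0 in every library, and Pf4, a platelet factor, fell by 2.39 ± 0.16. Lyz2, a lysozyme of myeloid cells, was called higher at day 2 (2.08) and lower at the second step (-2.12), between 0.22 and 1.72 CPM in all, and Col1a1, a collagen chain, fell by 1.20 over the whole course. The summed level of those 8 markers lay in the range of 45.8 to 59.5 CPM at day 0, and of 15.1 to 16.9 and 10.1 to 11.7 CPM on the later days, most of it Pf4, and its part in the changes below was not tested.

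Summed core histone RNA was highest at day 0 and lower at each later day, while the H2B sum rose again after day 2. Of the 57 members, 56 passed the filter on low counts, and the testis-type gene H2ac1 had 0 counts in every library, which allows at most 0.0831 CPM in the shallowest library. At day 2 against day 0, 48 of the 56 were called lower and 0 higher, where 31.5% of 12381 genes tested were called lower, 31.0% higher and 62.5% in either direction. At day 4 against day 2, 37 were called lower and 6 higher, against 16.2% and 14.0% of all genes tested (30.3% in either direction). For the whole course, day 4 against day 0, 50 were called lower and 1 higher, against 36.4% and 35.5% of all genes tested (71.8% in either direction). These 3 comparisons share libraries. The median member changed by -1.42, -1.21 and -2.48 in the 3 comparisons, while the median gene changed by 0.01, -0.00 and -0.02. TMM scaling holds the bulk of genes near 0, so the values of the median gene follow largely from the scaling. With total counts in place of TMM factors, the member medians were -1.22, -1.29 and -2.36. Without day 2 replicate 1, the calls of day 4 against day 2 fell from 43 to 20 members. In bulk RNA, fewer cells in S phase and less histone RNA in each cell cannot be told apart.

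The summed level of all members was 810.9 and 842.4 CPM in the day 0 libraries, 321.4 and 297.4 at day 2, and 206.2 and 217.2 at day 4. The H2A sum followed this course, with 583.9 and 546.7 CPM at day 0, 206.3 and 185.2 at day 2, and 87.2 and 96.9 at day 4. The H3 sum went from 102.1 and 176.8 CPM to 52.4 and 47.1 and then to 14.7 and 21.1. The H4 sum went from 34.0 and 35.7 CPM to 17.4 and 16.99 and then to 7.31 and 9.19. The H2B sum took another course, and stood at 91.0 and 83.1 CPM at day 0, 45.3 and 48.1 at day 2, and 97.0 and 90.1 at day 4. The day 4 H2B sums therefore overlapped those of day 0, while in the other 3 families every day 4 sum lay below every day 0 sum. Most of the day 4 H2B sum was H2bc21 and H2bc4, with means of 36.4 and 34.3 CPM, against 33.4 and 9.43 at day 0. A grouping made after values were seen took the 11 H2B members with a matched transcript of 1000 bases or fewer. Their sum was 33.0 and 31.6 CPM at day 0, 13.7 and 13.1 at day 2, and 13.7 and 13.4 at day 4. As a share of all member CPM, not divided by length, H2B made up 10.5% at day 0 and 44.2% at day 4, and H2A went from 68.4% to 43.5%. No test was made of the difference between families.

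**Figure D1:**
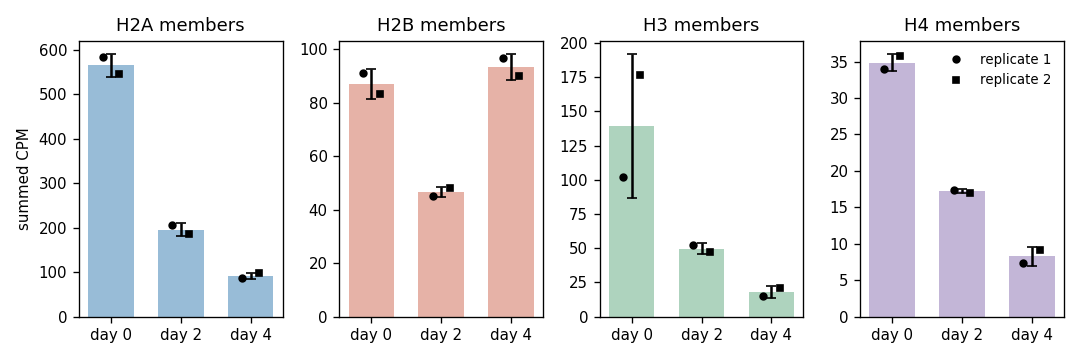
Summed CPM of the members of each family (vertical axis, a separate scale in each panel) on each of the 3 days; bars are means, whiskers the SD over 2 libraries, circles replicate 1 and squares replicate 2. The H2B sum fell from 87.1 to 46.7 CPM and stood at 93.5 CPM at day 4, while the other families ended at 12.8% to 23.7% of their day 0 level. Most of the H2B sum at day 4 was H2bc21 and H2bc4, with means of 36.4 and 34.3 CPM. The H2A and H3 sums count both genes of each same-count pair.

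Taken step by step, 32 of the 56 members were called lower at both steps, a course followed by 9.05% of all genes tested. They comprised 13 H2A, 3 H2B, 11 H3 and 5 H4 members. Another 11 members were called lower and then not called (20.8% of all genes), of which 7 were H2B. Being called lower and then higher was the course of 5 members, all H2B, and of 1.68% of all genes. The 5 members not called at the first step and lower at the second (5.0% of all genes) were all H4. H2bc4 was the only member not called and then called higher (4.04% of all genes), and H2ac21 and H4c17 were called at neither step (28.4% of all genes). Without day 2 replicate 1, the number lower at both steps was 17.

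**Figure D2:**
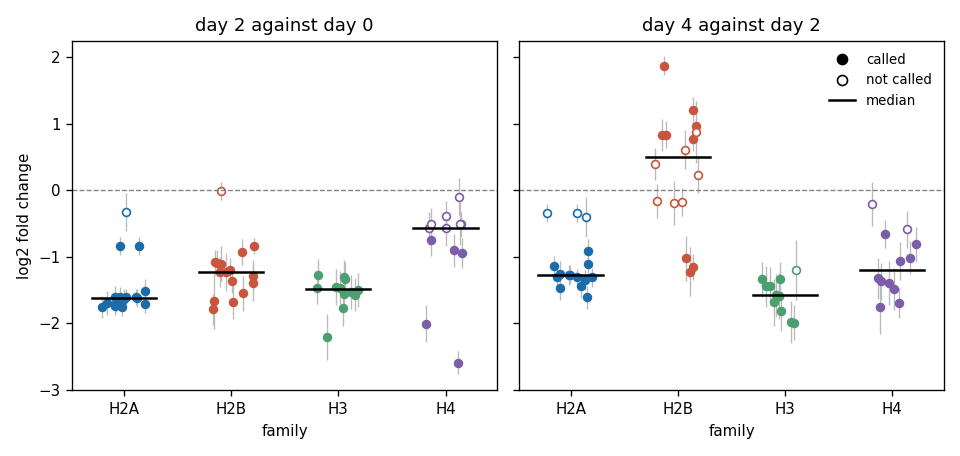
Log2 fold change of each tested member (points, with whiskers of 1 standard error) by family, for day 2 against day 0 (left) and day 4 against day 2 (right); filled points were called, open points were not, and black lines are family medians. At the second step the H2B median was 0.50, while those of H2A, H3 and H4 were -1.27, -1.58 and -1.19.

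The H2A members encode the protein that forms the outer dimers of the nucleosome together with H2B. All 16 tested H2A members were called lower at day 4 against day 0, where 36.4% of all genes tested were, with log2 fold changes between -3.24 and -0.73. H2ac23 and H2ac24 (chromosome 13, at 21810367-21810918 for H2ac23) had the highest level per kilobase of transcript of any member on each day, at 234.0 CPM per kilobase for H2ac23 at day 0. The level of H2ac23 (NM_001177544) was 126.7 and 131.7 CPM at day 0, 46.9 and 38.0 at day 2, and 17.2 and 17.2 at day 4, so the days did not overlap. It fell by 1.61 ± 0.12 at the first step (edgeR, adjusted p = 1.44e-06) and by 1.30 ± 0.12 at the second (adjusted p = 0.000123). The counts of H2ac24 differed from those of H2ac23 by at most 1 in any library, and H2ac18 and H2ac19 had identical counts, so neither pair can be read as separate measurements. Other members share sequence too. In the median H2A transcript, 79.8% of stretches of 30 bases also occur in another member, against 47.7% for H2B, 61.2% for H3 and 49.4% for H4. The alignment allowed a read several placements, and how the counting then assigned reads from shared stretches is not given. Members called alike therefore need not be separate measurements.

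The steepest H2A fall was that of H2ac10 (NM_175661, chr13:23533875-23534378), which stood at 34.1 and 26.4 CPM at day 0, 9.05 and 10.3 at day 2, and 3.02 and 3.34 at day 4. Its 9.48-fold lower level at day 4 than at day 0 corresponds to a log2 fold change of -3.24 ± 0.17 (edgeR, adjusted p = 6.79e-08). The 12 tested H2A members of chromosome 13 were all called lower at both steps (9.05% of all genes tested) and kept within -3.24 and -2.61 over the whole course. On chromosome 3, H2ac20 gave -3.04, but H2ac18 and H2ac19 fell by only 1.18, from 28.6 and 25.2 CPM to 10.7 and 12.9, and were not called at the second step (-0.34, adjusted p = 0.0806). H2ac21 (NM_178213, chr3:96219885-96220354), the tested H2A member with the lowest level per kilobase, gave 0.83 and 1.19 CPM at day 0, 0.77 and 0.85 at day 2, and 0.61 and 0.62 at day 4. Its values at day 0 and day 2 overlapped, and its change over the whole course, -0.73 ± 0.30 (adjusted p = 0.0445), was no longer called under DESeq2, with total counts, without the filter, in a fit of the 2 days alone, or without any 1 of 5 of the 6 libraries.

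The H3 members encode the protein that pairs with H4 in the central tetramer of the nucleosome, and their median log2 fold change over the whole course was -3.09, against -2.91 for H2A. All 12 were called lower at the first step and over the whole course, where their log2 fold changes lay between -3.55 and -2.78, and 11 were called lower at the second step. The shares of all genes tested called lower were 31.5% at the first step, 16.2% at the second and 36.4% over the whole course. The member with the most H3 counts at day 0, H3c14 (NM_178216, chr3:96246685-96247348), was at 26.0 and 46.0 CPM at day 0, 13.6 and 12.5 at day 2, and 3.96 and 6.27 at day 4, and its copy H3c15 had identical counts. No day overlapped another for H3c14, although the day 0 libraries lay further apart than the day 2 libraries did. H3c6 (NM_178205, chr13:23561475-23562385) fell most, from 6.20 and 10.4 CPM at day 0 to 3.09 and 2.52 at day 2 and 0.58 and 0.82 at day 4, which is -3.55 ± 0.30 over the whole course (edgeR, adjusted p = 1.52e-06). The smallest H3 change was that of H3c4 (NM_178204, chr13:23575763-23576266), from 4.02 and 7.05 CPM to 2.35 and 2.08 and then to 0.78 and 0.84, at -2.78 ± 0.29 (adjusted p = 7.85e-06). Without day 2 replicate 1 the H3 calls at the second step fell from 11 to 3 (H3c3, H3c6 and H3c11), with a median of -1.43 in place of -1.58.

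At day 0, all 12 H3 members were higher in replicate 2 than in replicate 1, with a median ratio of 1.74. The same ratio was 0.883 for H2A, 0.894 for H2B and 1.07 for H4. At day 2 and day 4 the median H3 ratio was 0.895 and 1.20. Some other RNAs also differed between the day 0 libraries. H2az1 had 359.1 and 749.0 CPM in replicates 1 and 2, and Ccna2 had 193.3 and 317.3, while the 18 S phase genes, Ccna2 among them, summed to 4035 and 3990. Rpph1, the RNA of RNase P, which has no poly(A) tail, had 3.77 and 14.0 CPM in replicates 1 and 2 of day 0, and Rnu12, the U12 small nuclear RNA, had 1.18 and 10.1 CPM. Rmrp, a further RNA without a poly(A) tail, had 9.76 and 11.1 CPM. The 7 such RNAs in the counts, listed after the H3 values were seen, summed to 19.2 and 43.9 CPM at day 0, 25.1 and 25.7 at day 2, and 27.0 and 62.9 at day 4. Of those 7, 1 was called lower (Terc, -1.27) and 1 higher (Rnu12, 1.97) at day 4 against day 0, against 36.4% and 35.5% of all genes tested. Their part in the H3 values was not tested. Without day 0 replicate 2, H3c14 still changed by -2.34 and H3c6 by -3.13 over the whole course.

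**Figure D3:**
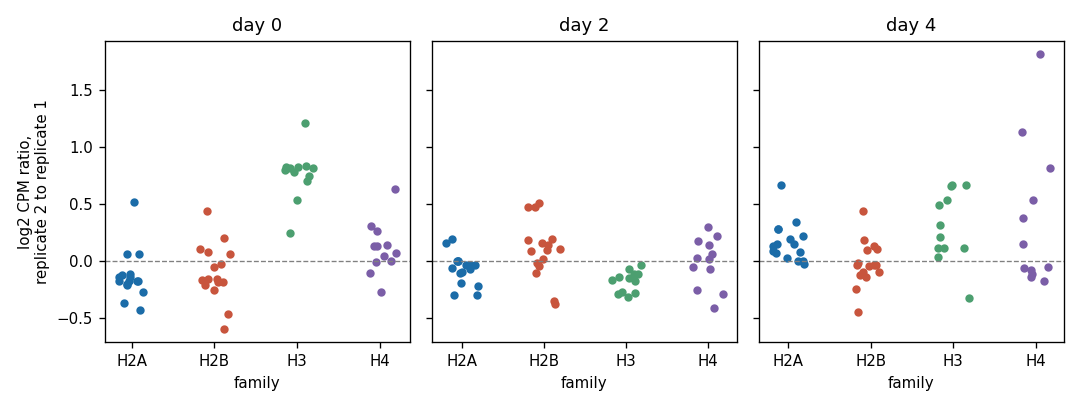
Log2 ratio of CPM in replicate 2 to replicate 1 for each tested member (points) by family, in a panel for each day; the dashed line marks equal levels. At day 0 all 12 H3 members lay above the line, with a median ratio of 1.74, and at day 2 all 12 lay below it, with a median ratio of 0.895.

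The H4 members fell at different steps. At day 2, 6 of 12 were called lower, against 31.5% of all genes tested, and the median H4 log2 fold change was -0.57. At the second step 10 of 12 were called lower, against 16.2% of all genes, with an H4 median of -1.19. By day 4 all 12 were called lower than at day 0, where 36.4% of all genes were. These counts rest on the day 2 libraries, since without day 2 replicate 1 the calls were 3 at the first step and 1 (H4c14) at the second, and without day 2 replicate 2 they were 3 and 4, while the second-step medians stayed at -1.20 and -1.14. Without day 4 replicate 2 the second step had 6 calls, and no test of the difference between the steps was made. H4c14 (NM_033596, chr3:96262934-96263317), the only H4 member of chromosome 3, had the highest level per kilobase of the H4 members at day 0, at 25.7 CPM per kilobase. It stood at 9.90 and 9.87 CPM at day 0, 1.60 and 1.67 at day 2, and 0.53 and 0.49 at day 4, with little spread within any day. Its fall of 2.59 ± 0.17 at the first step (edgeR, adjusted p = 6.97e-07) and of 4.28 ± 0.21 over the whole course (adjusted p = 3.58e-08), a 19.5-fold lower level, was the largest of any member. H4c9 fell by 2.01 at the first step and by a further 0.21, not called, at the second. By contrast H4c3 gave 2.18 and 2.40 CPM at day 0 and 2.20 and 2.096 at day 2, which overlap, before 0.53 and 1.15 at day 4. H4c17 (NM_001195421, chr13:21811746-21812150) changed least, going from 1.30 and 1.29 CPM to 0.89 and 0.85 and then to 0.61 and 0.55, with -1.16 ± 0.26 over the whole course (adjusted p = 0.00222).

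The H2B members divided after day 2. At day 2, 15 of 16 H2B members were called lower, against 31.5% of all genes tested, with a median log2 fold change of -1.23. At day 4 against day 2, 3 were called lower (H2bc3, H2bc14 and H2bc18), 7 were not called, and 6 were called higher (H2bc4, H2bc21, H2bc8, H2bc9, H2bc23 and H2bc6). The shares of all genes tested at that step were 16.2% lower and 14.0% higher. No member of the H2A, H3 or H4 families was called higher in any comparison. Leaving out either day 2 library reduced the 6 to 3, which were H2bc4, H2bc21 and H2bc8, and DESeq2 called 5 of the 6. The 3 lower calls fell to 1, H2bc18, under DESeq2 and without any 1 of the day 2 and day 4 libraries. With a limit of 1 on the size of the log2 fold change, 2 remained, H2bc4 and H2bc8. By day 4, 10 H2B members were called lower than at day 0, 1 higher and 5 not called. Among all genes tested, 36.4% were called lower and 35.5% higher in that comparison, 71.8% in either direction.

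H2bc4 (NM_023422, chr13:23684199-23692480) was the only member called higher at day 4 than at day 0. Its level was 9.61 and 9.25 CPM at day 0, 8.84 and 9.85 at day 2, and 37.3 and 31.3 at day 4. The values of day 0 and day 2 overlapped, and those of day 4 lay above all of them. The first step gave -0.01 ± 0.14, and the second 1.87 ± 0.14 (edgeR, adjusted p = 5.25e-05), a 3.66-fold rise. Against day 0 the rise was 1.86 ± 0.14 (adjusted p = 5.48e-07). Per kilobase of transcript its level was 8.16 CPM at day 0 and 29.6 at day 4, when only H2ac23 and H2ac24 were higher among the members.

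H2bc21 (NM_178214, chr3:96221072-96223738) took the most counts of any chromosome 3 member at day 4, with 35.6 and 31.2 CPM at day 0, 17.8 and 19.6 at day 2, and 36.7 and 36.2 at day 4. Both day 2 libraries lay well below the others, and the day 4 libraries lay just above those of day 0. It fell by 0.84 ± 0.12 (adjusted p = 0.000139), rose by 0.96 ± 0.12 (adjusted p = 0.000417), and over the whole course gave 0.13 ± 0.12, which was not called (edgeR). H2bc8 (NM_178196, chr13:23571400-23571863) went from 5.25 and 4.53 CPM to 1.84 and 1.95 and then to 4.60 and 4.22. Its rise at the second step was 1.21 ± 0.19 (adjusted p = 0.00112), and its day 4 values overlapped those of day 0. H2bc23 rose by 0.83 and H2bc6 by 0.78 at the second step, and neither was called over the whole course (-0.09 and -0.31). H2bc9 rose by 0.83 from day 2 but stayed below day 0 by 0.96, and its second step was not called by DESeq2.

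At the other end of the family, H2bc3 (NM_175664, chr13:23746734-23747223) went from 1.76 and 1.73 CPM at day 0 to 0.46 and 0.63 at day 2 and 0.22 and 0.24 at day 4. No day overlapped another, and its fall of 2.89 ± 0.32 over the whole course (edgeR, adjusted p = 1.02e-05) was the largest of the family, although its second step was not called by DESeq2. H2bc18 fell by 1.19 and then by 1.16, and H2bc14 by 1.55 and then by 1.02. H2bc7, H2bc11 and H2bc12 were called lower at day 2 and not called at the second step, with values between -0.19 and -0.17. H2bc13, H2bc15, H2bc22 and H2bc1 gave second-step values between 0.24 and 0.87 that were not called, the last of them, the testis-type H2B gene, at 0.14 to 0.56 CPM over the 6 libraries.

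**Figure D4:**
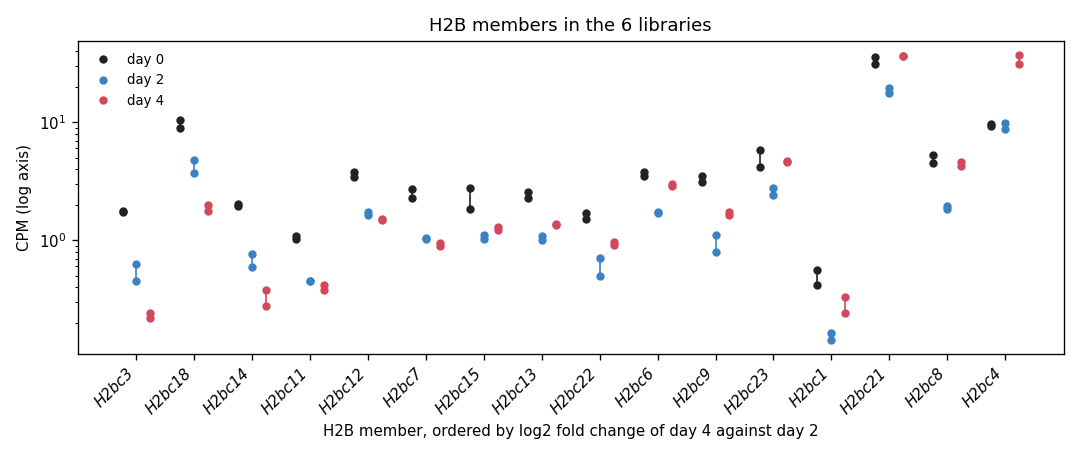
CPM of the 16 H2B members (log axis) in the libraries of day 0 (black), day 2 (blue) and day 4 (red), ordered by the change from day 2 to day 4; the points joined by a line are the replicates of a day. H2bc3, H2bc18 and H2bc14 at the left fell at both steps, and H2bc21, H2bc8 and H2bc4 at the right rose after day 2, H2bc4 to 37.3 and 31.3 CPM.

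H2A and H2B genes often lie head to head and share the stretch between their starts, so neighbours can be compared pair by pair. Their counts need not come from that locus alone. In the H2A genes of the tested pairs, 13.2% (H2ac6) to 93.8% (H2ac23) of stretches of 30 bases also occur in another member. H2ac23 also has nearly the same counts as H2ac24, which lies elsewhere. There were 11 such pairs among the members, with 164 to 281 bases between the annotated starts, and in 10 of them both genes were tested. For each pair the H2B counts per 100 counts of the H2A neighbour were followed, a ratio in which library scaling cancels and which was not divided by transcript length. In all 10 pairs both day 4 ratios lay above both day 0 ratios. Ratios of day 4 and day 0 also failed to overlap, in either direction, in 84.4% of the 595 divergent pairs among all tested genes, so separation by itself was common. The fold of the mean ratio from day 0 to day 4 ranged from 2.30 (H2ac11 and H2bc11) to 27.6 (H2ac6 and H2bc4), with a median of 4.66. For H2bc4 and H2ac6 the ratio was 30.4 and 34.0 at day 0, 88.7 and 106.6 at day 2, and 989.0 and 786.7 at day 4. H2ac6 itself fell over the course by 2.92. H2bc8 with H2ac8 went from 19.3 and 18.2 to 150.9 and 126.5, and H2bc21 with H2ac20 from 261.4 and 249.1 to 2496 and 2154. H2bc12 with H2ac12, both of which fell, went from 14.2 and 14.4 to 47.8 and 29.4. The ratio therefore shifted toward H2B also in pairs whose H2B gene did not rise.

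**Figure D5:**
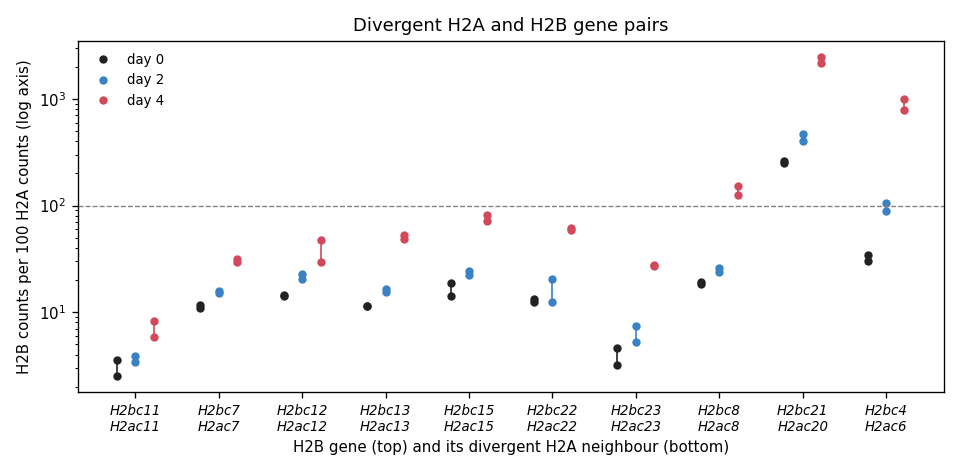
H2B counts per 100 counts of the divergent H2A neighbour (log axis) for the 10 pairs with both genes tested, in the libraries of day 0 (black), day 2 (blue) and day 4 (red), ordered by the fold of the mean ratio; the dashed line marks equal counts. Every pair's day 4 libraries lie above its day 0 libraries, from a 2.30-fold shift at the left to a 27.6-fold shift at the right.

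The H2B members that rose after day 2 could be set beside their annotated transcripts, a grouping made after their values were seen. The matched GENCODE transcript was longer than 1000 bases for 5 H2B members (H2bc4, H2bc6, H2bc9, H2bc21 and H2bc23). At day 4 against day 2, where 14.0% of all genes tested were called higher, all 5 were called higher. With either day 2 library left out, 2 of the 5 were (H2bc4 and H2bc21), without day 4 replicate 2 it was 3, and DESeq2 called 4. Of the 11 H2B members with a shorter transcript, 1 (H2bc8) was called higher and 3 lower, against 14.0% and 16.2% of all genes, the 3 reduced to 1 as above. In the other families, 7 members (H2ac6, H3c4, H3c7, H3c14, H3c15, H4c4 and H4c14) had a matched transcript longer than 1000 bases, and all 7 were called lower at both steps, but without day 2 replicate 1 only H2ac6 and H4c14 were. With all libraries, 9.05% of all genes tested were called lower at both steps. For H2bc9 the counted RefSeq gene spans 522 bases while the GENCODE transcript has 1679, so the counts need not cover the longer form. The same limit holds for all 7 members of the other families, whose counted RefSeq genes span 384 (H4c14) to 903 (H3c7) bases. Those of H2bc4, H2bc6, H2bc21 and H2bc23 span 2667 bases or more, so the 2 long groups were not measured alike. The matched transcript of H2bc6 overlaps an exon of the linker histone gene Hist1h1e on the same strand, and how reads there were assigned is not given in the sources used here. Of all 57 members, 22 overlap an exon of another annotated gene, 20 of them one on the opposite strand, mostly of predicted miRNA genes, and H2ac18, H2ac19, H2ac21, H2bc18, H3c13 and H4c2 overlap an antisense RNA. Whether the counts took strand into account is not given either, so their values include any reads of those RNAs that were not kept apart.

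The 3 members with several RefSeq transcripts, H2bc4, H2bc6 and H2bc22, allow the choice of transcript to be checked. For H2bc4 the second transcript, NM_001290380, had 245 and 252 counts at day 0, 153 and 163 at day 2, and 497 and 452 at day 4, against 392 and 459, 369 and 484, and 1345 and 1416 for NM_023422. Both rose from day 2 to day 4, by 1.76 ± 0.19 and 1.87 ± 0.14. They differed at the first step, where NM_001290380 fell by 0.67 ± 0.19 (edgeR, adjusted p = 0.0112) and NM_023422 gave -0.01 ± 0.14 (adjusted p = 0.947), a difference that was not itself tested. Counts of transcripts of a gene may hold the same reads. The 3 transcripts of H2bc6 changed alike, by -1.17 to -1.08 at the first step and 0.77 to 0.78 at the second.

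By position, members of both clusters were lower at day 4. On chromosome 13, 41 of 46 tested members were called lower and 1 higher at day 4 against day 0, with a median of -2.48, and on chromosome 3 it was 9 of 10 and 0, with a median of -2.58. Among all genes tested, 36.4% were called lower and 35.5% higher, 71.8% in either direction. The summed level of the chromosome 13 members was 620.1 and 612.1 CPM at day 0 and 134.1 and 135.0 at day 4, and that of the chromosome 3 members 190.9 and 230.3 and then 72.1 and 82.2. Both sums count each gene of the same-count pairs. H2bc21, H2ac18 and H2ac19 together made up most of the day 4 sum of chromosome 3. Within chromosome 13, the members above 23 Mb had a median change of -2.78 and those below it -2.21. The summed levels took the reverse order, with 32.9% of the day 0 level left at day 4 above 23 Mb and 16.1% below it. These parts also differ in their mix of families, and an effect of position was not tested. Among H4 members, H4c14 on chromosome 3 gave -4.28 and the 11 on chromosome 13 a median of -1.87. On chromosome 11, H2aw and H2bu2, which are no members by their symbols, were called lower at day 2 (-0.70 and -1.10) and gave 0.84 (called) and 0.87 (not called) at the second step. H4f16 on chromosome 6, an H4 gene with another symbol, fell by 3.03 over the whole course.

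Promoters of 52 members, from 250 bases before to 50 after the annotated start, were searched on both strands for 3 short motifs, as found in RefSeq's sequences of GRCm38.p6. The octamer ATTTGCAT, the element that binds Oct-1 in H2B promoters, was in 6 of 14 H2B and 6 of 17 H2A promoters, 0 of 10 H3 and 0 of 11 H4 promoters, and in 1.75% of all 27025 promoters. Since the promoter windows of divergent neighbours can overlap, a match may be counted for both genes. CCAAT was in all 17 H2A, 14 H2B and 10 H3 promoters and in 3 of 11 H4 promoters, against 37.9% of all promoters. TATAAA was in 11 of 17 H2A, 7 of 14 H2B, 4 of 10 H3 and 8 of 11 H4 promoters, against 14.2%. The windows around the octamer, in capitals, are shown for H2bc8, the H2B gene with an octamer that was called higher at the second step, and for H2bc3, the H2B gene that fell most over the whole course, at chr13:23571330-23571359 and chr13:23746633-23746662, both on the plus strand.
H2bc8: ttgagtcccttATTTGCATagaacctctat
H2bc3: ttgagtctcttATTTGCATaaagcctttga
H2bc1, H2bc12, H2bc14 and H2bc18 carried the octamer too. Of the 6 H2B members with it, 1 (H2bc8) was called higher at the second step, against 14.0% of all genes tested. Another 3 (H2bc3, H2bc14 and H2bc18) were called lower, against 16.2% of all genes. Of those, only H2bc18 was called lower under DESeq2, and their calls with a library left out are given with the H2B members above.

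Core histone variants that are not confined to S phase come mainly from polyadenylated mRNAs, and the form of mRNA behind each count was not tested. Of 8 tested variants, 4 were called lower and 2 higher at day 4 against day 0, against 36.4% and 35.5% of all genes tested (71.8% in either direction). H2az1, which encodes the main H2A.Z, fell by 2.36 ± 0.26 (edgeR, adjusted p = 1.1e-05), with day 0 libraries at 359.1 and 749.0 CPM, and by 1.75 without day 0 replicate 2. H2az2, its paralog, rose by 1.03 ± 0.10 (adjusted p = 5.03e-06), from 39.8 and 41.7 CPM to 79.0 and 87.2. Of the H3.3 genes, H3f3a rose by 0.89 ± 0.13 (adjusted p = 0.000111), and H3f3b fell by 0.26 ± 0.10 (adjusted p = 0.0417), a call lost under 7 of the alternatives. H2ax, the variant phosphorylated at DNA breaks, changed by -0.02 ± 0.14 and was not called.

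Genes whose products make histone mRNA or carry histones moved in both directions. Of 22 genes for histone gene transcription and mRNA processing, 15 were called lower and 2 higher at day 4 against day 0, with a median of -0.63. Of all genes tested, 36.4% were called lower and 35.5% higher in that comparison (71.8% in either direction). Slbp, the stem-loop binding protein, was at 201.3 and 249.3 CPM at day 0, 191.5 and 177.7 at day 2, and 138.4 and 145.8 at day 4, and fell by 0.66 ± 0.13 over the course (edgeR, adjusted p = 0.000599). Npat, the cyclin E-Cdk2 substrate that activates histone genes, gave -0.07 and was not called, while Casp8ap2 (FLASH), which acts in pre-mRNA cleavage, fell by 0.96. Of the U7 snRNP proteins, Lsm10 gave -0.23 and Lsm11 0.24, neither of them called. Zfp473, a U7-associated zinc finger protein, fell most at 1.89, Hinfp, the H4 promoter factor, rose by 0.44, and Tut7, a uridylyltransferase of histone mRNA decay, rose by 1.39. Of 18 histone chaperone genes, 13 were called lower and 4 higher, from Nasp, the H3-H4 chaperone, at -2.53 to Cabin1, a partner of Hira, at 1.29. All 18 S phase genes were called lower, with a median of -1.68 and the largest fall for Tk1, thymidine kinase, at -4.01. The S phase sum was 4035 and 3990 CPM at day 0, 2129 and 2089 at day 2, and 1139 and 1293 at day 4, and so fell at both steps alongside the H2A, H3 and H4 sums and unlike the H2B sum between day 2 and day 4. Whether the course of these genes bears on that of the members was not tested.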

How the data were processed

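The authors prepared stranded, poly(A)-selected libraries, trimmed adapters with cutadapt, and aligned reads to mm10 with TopHat. The TopHat setting allowed several placements for a read that matched several places. The values deposited for each library are whole-number counts of reads on RefSeq transcripts, neither normalized nor pooled. HTSeq is named in the submitters' processing notes, while its settings, its use of strand and its annotation are not given in the sources used here. No ambiguous or multiply aligned reads are listed, and reads on no feature were left out, at 50.5% to 58.4% of each library. Depth was 35294930 to 53899476 counts.

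Of 32654 transcripts, 32199 were given symbols from RefSeq (GRCm38.p6), 187 from GENCODE M21 and 268 none. H2ac14 and H2ac5-ps match the naming rule but have no counts. The 18351 transcripts that passed filterByExpr (minimum count 10) were fitted with edgeR 4.0.16 in R 4.3.3 (TMM, glmQLFit and glmQLFTest, a mean per day over all 6 libraries), with Benjamini-Hochberg adjustment and a call at 0.05. The fit was tested on simulated counts. Shares of all genes use the 12381 tested genes. Length is that of the RefSeq gene, or of the matched GENCODE transcript where the gene spans more than 1000 bases. Pairing was checked by correlating deviations of same-numbered libraries, which gave 0.0316, 0.0451 and 0.0791, so the main fit has no block.

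The members follow from their symbols alone, but this set of genes and the lists were picked for description with earlier results of these data known. Named with full statistics were, in each family, the member with most CPM at day 0 and those with the lowest and highest change over the whole course, each member called higher over the course, and the member with most CPM at day 4 in each cluster. Listed genes were named as Slbp, Npat, Casp8ap2, Lsm10, Lsm11, Hinfp, H3f3a, H3f3b, H2az1, H2ax and the largest called rise and fall of a list. Other members described singly were chosen after their values were seen, as were the RNAs without a poly(A) tail and the chromosome 11 and chromosome 6 genes. Alternatives were DESeq2 1.42.0, RLE factors, total counts, factors without globin transcripts, no filter, a fit of 2 days, the replicate block, another transcript per gene, a limit on the size of change and leaving out each library. Counting each same-count pair once was chosen after seeing the data. Of the 8 markers of other cells, 1 is not reported here.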

Additional observations from a re-analysis of the deposited data

How the results depend on the processing

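The member medians of the 3 comparisons kept their sign under every alternative run, and 1225 of 1326 values of named genes kept their direction and side of the threshold, 56 lost a call, 24 gained one and 21 changed sign. Leaving out each library in turn gave 20 to 46 members called for day 4 against day 2 (43 with all libraries), 17 to 34 lower at both steps (32), 3 to 6 H2B members called higher (6), and medians of -1.30 to -1.07 for day 4 against day 2 and -2.82 to -2.30 for day 4 against day 0. The lowest of these counts came without day 2 replicate 1, and for H2B also without day 2 replicate 2. Without day 2 replicate 1, H3 kept 3 of 11 second-step calls and H4 1 of 10. A lone library was assumed to vary like the others. With total counts in place of TMM factors, the median for day 4 against day 2 was -1.29 and the summed level 768.9 CPM at day 0 and 330.2 at day 2. Counting each same-count pair once gave sums of 634.6, 238.9 and 177.5 CPM at days 0, 2 and 4. A log2 fold change of at least 1 left 2 H2B members higher. The replicate block, whose numbers do not pair the libraries, gave 48, 41 and 51 members called in the 3 comparisons and 30 lower at both steps, and it changed the call of none of the 34 named genes.

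The changes of sign were all in values close to 0 that were not called. With total counts they were H2bc4 at day 2 against day 0 (0.19), Lsm10 in the same comparison (0.018), Klf1 at day 4 against day 2 (-0.056), and H2bc23 (0.018), H2ax (0.088) and Npat (0.045) at day 4 against day 0. H3f3b at day 2 against day 0 was -0.017 with RLE factors and -0.014 with DESeq2. Leaving out libraries at day 2 against day 0 gave ranges of -0.089 to 0.064 for H2bc4, -0.12 to 0.24 for H2ax, -0.0070 to 0.026 for H3f3b and -0.35 to 0.0011 for Lsm10. At day 4 against day 2 the ranges were -0.26 to 0.097 for H2ax, -0.047 to 0.10 for Klf1 and -0.25 to 0.12 for Lsm10, and at day 4 against day 0 they were -0.33 to 0.14 for H2bc23 and -0.15 to 0.086 for H2ax. The cause of these differences was not tested.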
